A study of Mus musculus with 24 samples.

Results

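The 10 genes described here carry insulin and insulin-like growth factor (IGF) signals from the cell surface to the nucleus, and their mRNA was measured in MIN6 cells under endoplasmic reticulum (ER) stress. They are the receptors Insr, Igf1r and Igf2r, the adaptors Irs1 and Irs2, the phosphoinositide 3-kinase (PI3K) subunit Pik3r1, the kinases Akt1 and Akt2, and the transcription factors Foxo1 and Foxo3. The 10 were taken by symbol from a table of 24421 genes. All 10 passed the filter on low counts and were among the 13761 genes tested.

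MIN6 is a mouse insulinoma line that makes and secretes insulin. Its cells received a plasmid for EIF2A fused to GFP (EIF2A below) or for GFP alone (GFP below), and then 1 µM thapsigargin for 1 or 3 h or DMSO, written as 0 h. The 6 groups are EIF2A at 0, 1 and 3 h and GFP at 0, 1 and 3 h, each with 4 libraries of polyadenylated RNA, 24 in all. Thapsigargin blocks the pump that loads calcium into the ER and so causes ER stress, and EIF2A is a translation initiation factor. All cells grew in medium with serum and 22.2 mM glucose, so the medium held growth factors in every group, and the cells make insulin and Igf2 themselves. The share of cells that took up a plasmid, and whether DMSO ran for 1 or 3 h, are not stated in the labels. The labels also do not say that replicates are separate cultures, so p-values measure the spread between these libraries, which may be technical.

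Insulin binds the insulin receptor and, more weakly, the IGF1 receptor, and both are tyrosine kinases that phosphorylate the IRS adaptors. IRS proteins dock PI3K through its p85 subunit, and the lipid that PI3K makes recruits AKT. AKT then phosphorylates FOXO factors and keeps them out of the nucleus. In beta cells Irs2 is known for its part in growth and survival, and FOXO1 for its part in the response to metabolic stress. These steps run on protein phosphorylation, which RNA counts do not measure.

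Depth was 10.5 to 22.1 M (mega) counts for EIF2A and 16.7 to 22.2 M counts for GFP. In replicates 2 to 4 it was 10.5 to 16.6 M counts for EIF2A and 16.7 to 22.2 M for GFP, without overlap. The part of depth in the differences between constructs was not tested. Values are counts-per-million (CPM) after TMM scaling, and changes are log2 fold changes ± SE from edgeR's quasi-likelihood test with Benjamini-Hochberg adjustment over all genes tested, where an adjusted p under 0.05 is a call. The 12 beta cell markers summed to 55800 to 122000 CPM in EIF2A and 44500 to 106000 CPM in GFP, with all 12 above 0. Over all libraries the alpha markers Gcg and Ttr lay at 138 to 921 CPM and at 484 to 1560 CPM. The 3 duct markers summed to 375 to 1020 CPM in EIF2A and 311 to 1270 CPM in GFP, from Krt7 and Spp1, with Krt19 at no more than 0.252 CPM. Mesenchymal markers reached 11.3 CPM and macrophage markers 14.6 CPM. The delta, PP and epsilon, acinar and endothelial markers summed to at most 1.54 CPM, and of the 4 acinar ones Prss2 and Amy2a5 were at 0. The part of these other markers in the results was not tested. Ddit3, a target of the stress response, rose with 3 h of thapsigargin by 1.70 ± 0.28 in EIF2A (adjusted p = 5.11e-05) and by 2.03 ± 0.28 in GFP (adjusted p = 9.44e-06). Replicate 1 went against its labels. Eif2a, the gene on the plasmid, stood at 80.27, 96.94 and 104.3 CPM at 0, 1 and 3 h in the libraries labelled EIF2A replicate 1, against 269.4, 361.2 and 358.1 CPM in those labelled GFP replicate 1. In replicates 2 to 4 it stood at 134.0 to 208.9 CPM in EIF2A, above the 77.78 to 101.9 CPM in GFP. The groups are kept as labelled, and results that rest on the construct are given with and without replicate 1.

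Per length of exon, averaged over the 24 libraries of all groups, Akt1 was the most abundant of the 10 mRNAs and Foxo3 the least. Akt1 had 42.1 ± 11.7 CPM per kilobase of exon (SD) and stood above Akt2 by more than that spread. Akt2 with 23.7 ± 4.14, Pik3r1 with 19.8 ± 6.47 and Igf2r with 13.5 ± 3.1 CPM per kilobase differed from neighbour to neighbour by less than the larger SD. Foxo1 with 7.6 ± 2.2 and Igf1r with 6.9 ± 2.76 CPM per kilobase lay below Igf2r by more than the SD and within it of each other. Irs2 with 3.0 ± 2.06, Insr with 2.53 ± 0.505 and Irs1 with 2.04 ± 0.467 CPM per kilobase were a lower step, again within the SD from neighbour to neighbour. Foxo3 was last with 1.33 ± 0.576 CPM per kilobase. The order was not the same in every group: in GFP, Pik3r1 averaged more per kilobase than Akt2 both at 1 h (means of 24.8 and 22.2) and at 3 h (means of 24.5 and 19.7), and the lowest Irs2 value in EIF2A at 3 h (0.825) was below the lowest Foxo3 value there (1.46). The lowest and highest single values of Irs2 were 0.528 and 6.26 CPM per kilobase, the widest span of the 10 in relative terms.

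**Figure D1:**
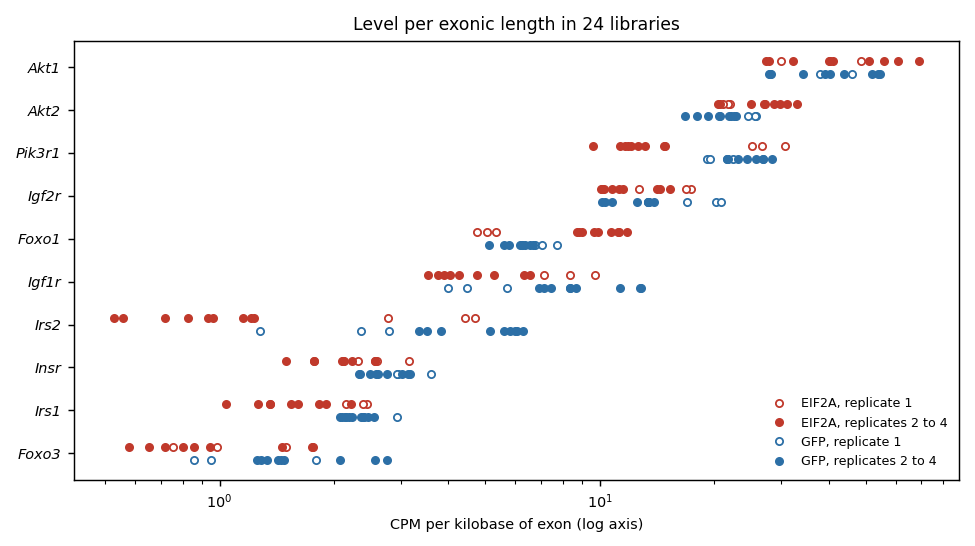
Level of each gene in CPM per kilobase of exon on a log axis, with 1 point per library, EIF2A in red above GFP in blue, and open points for replicate 1. Akt1 lies between 27.4 and 69.1 CPM per kilobase and Foxo3 between 0.578 and 2.75.

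On GRCm38, the build also called mm10, Insr is on chromosome 8 at 3122061 to 3279617, Igf1r on chromosome 7 at 67952827 to 68233668 and Igf2r on chromosome 17 at 12682406 to 12769664. Irs1 is on chromosome 1 at 82233101 to 82291416 and Irs2 on chromosome 8 at 10984681 to 11008458. Pik3r1 is on chromosome 13 at 101680563 to 101768217. Akt1 is on chromosome 12 at 112653821 to 112674884 and Akt2 on chromosome 7 at 27591552 to 27640826. Foxo1 is on chromosome 3 at 52268336 to 52353221 and Foxo3 on chromosome 10 at 42181841 to 42276755. Counts cover whole genes, so they do not tell exons, introns or UTRs apart. Exons of Irs1, Irs2 and Foxo1 share 2822, 162 and 674 bases with genes on the other strand (Gm9747, 9530052E02Rik and Gm20402). How the count treated strand is not given in the sources used, so those reads cannot be told apart. 9530052E02Rik had 0 to 13 counts per library, and the symbols of the other 2 were not found among the genes of the count table.

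Irs1 and Irs2 are paralogous adaptors whose promoters hold the same pair of short motifs, so the 250 bases before their RefSeq start sites (GRCm38.p6, both genes on the minus strand) are shown 5′ to 3′. Capitals mark CACGTG, the E-box, and TGTTTTG, the reverse complement of CAAAACA, which is the core of the insulin response element that FOXO factors are known to bind.
Irs1, chr1:82291440-82291689: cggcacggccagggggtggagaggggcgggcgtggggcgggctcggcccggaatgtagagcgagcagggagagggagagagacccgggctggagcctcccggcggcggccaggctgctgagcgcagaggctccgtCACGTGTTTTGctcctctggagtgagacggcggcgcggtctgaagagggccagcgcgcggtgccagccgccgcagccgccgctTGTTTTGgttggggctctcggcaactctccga
Irs2, chr8:11008930-11009179: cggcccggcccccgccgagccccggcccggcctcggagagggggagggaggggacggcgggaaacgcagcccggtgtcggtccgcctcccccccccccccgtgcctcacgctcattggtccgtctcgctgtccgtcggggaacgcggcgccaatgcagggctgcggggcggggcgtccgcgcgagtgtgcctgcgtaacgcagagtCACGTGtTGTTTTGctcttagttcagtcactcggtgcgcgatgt
In Irs1 the E-box lies 115 to 110 bases before the start and overlaps the reversed insulin response core at 111 to 105, which recurs at 32 to 26. In Irs2 the E-box lies 44 to 39 bases before the start, with the reversed core at 37 to 31. On both strands, CACGTG is in 6.02% and CAAAACA in 5.56% of 32851 mouse promoter windows of the same length. Of the 9 members in the promoter table, CACGTG is in Irs1, Irs2 and Igf2r and CAAAACA in Irs1 and Irs2. The FOXO core GTAAACA, in 3.17% of windows, was found in Akt1, and the cyclic AMP response element TGACGTCA, in 1.55%, in no member. A match is a string of letters and not a measured binding site.

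The first comparison asks how the mRNA of these genes answers thapsigargin over time in each construct. Akt1 fell and Foxo3 rose at 3 h in both constructs, and these 2 calls were made under each of 35 alternative settings. Irs2 was higher at 1 h and at 3 h in 8 of 8 pairs of libraries with the same construct and replicate number, and Insr was lower in 8 of 8 at both times. At 3 h against 0 h, 1 member rose and 3 fell in EIF2A, where 36.2% of all genes tested were called, and 1 rose and 1 fell in GFP, where 33.0% were called. In these bulk samples fewer cells of a type and less RNA per cell cannot be told apart.

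At 1 h against 0 h, no member rose and 1 fell in EIF2A, against 10.5% of genes called, and no member rose and 1 fell in GFP, against 8.18%. The fall was Akt1 in both. At 3 h against 1 h, 1 rose and 1 fell in EIF2A (14.9% of genes called), and likewise in GFP (9.77%), with Foxo3 as the rise and Akt1 as the fall. With all 4 replicates, libraries of the same number deviated together within a construct (r = 0.51 to 0.933). Among replicates 2 to 4 alone r was only −0.0264 to 0.312, so pairing by number is not established for them. As an alternative, each contrast over time was also fitted with replicate number as a block, called the paired fit below. It called 2 members that rose and 3 that fell at 1 h in EIF2A, where it called 45.3% of genes, and 3 and 2 in GFP, where it called 44.6%. At 3 h it called 2 that rose and 4 that fell in EIF2A (66.2% of genes) and 4 that rose and 4 that fell in GFP (67.1%). At 3 h against 1 h it called 2 and 4 in EIF2A (52.7%) and 2 and 3 in GFP (49.7%). The members called were thus 10.0% to 40.0% of the 10 in the unpaired fit and 50.0% to 80.0% in the paired fit. Without replicate 1 the shares of genes called were 42.0%, 62.6% and 49.1% in EIF2A and 39.4%, 63.0% and 42.2% in GFP, in the order of the contrasts above.

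**Figure D2:**
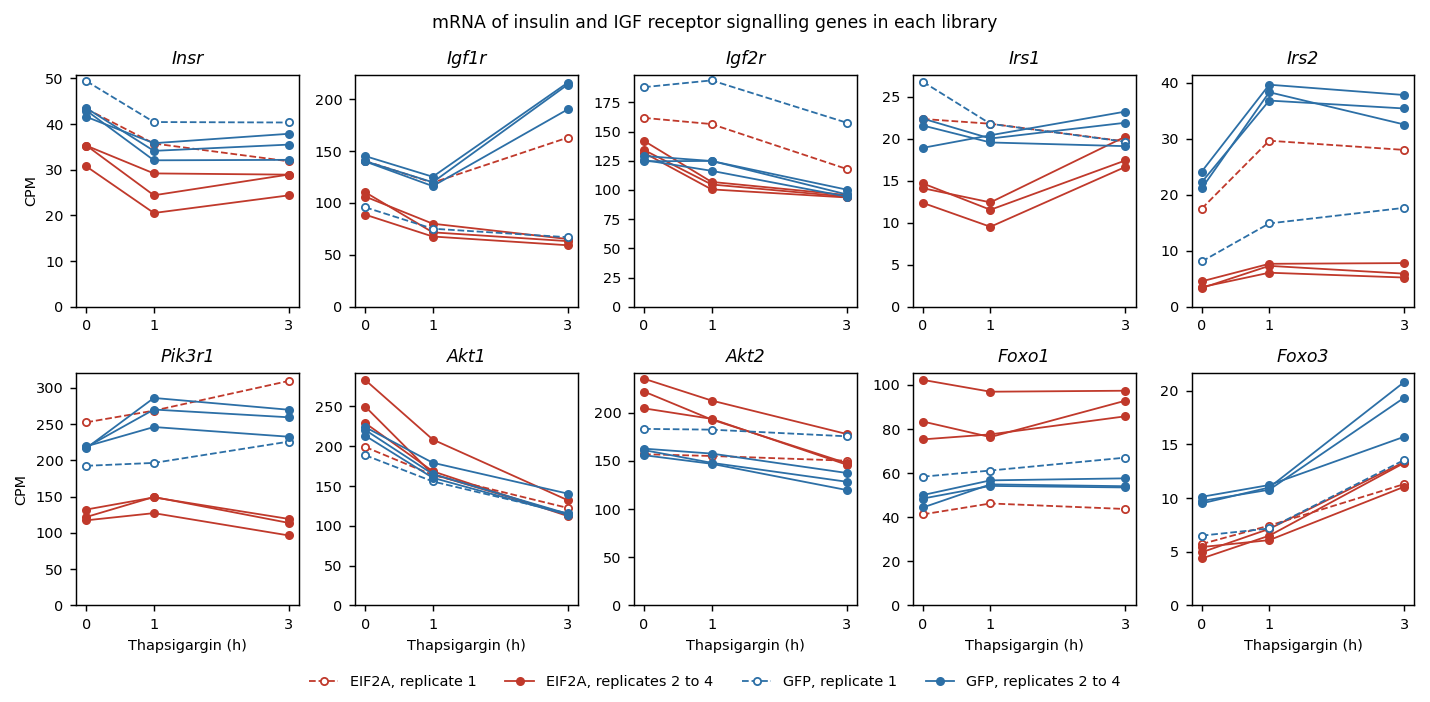
CPM of each of the 10 genes in every library against hours of thapsigargin, with lines joining libraries of the same replicate number, EIF2A in red and GFP in blue, and dashed lines with open points for replicate 1. Akt1 lines descend to 112.3 to 140.5 CPM at 3 h in all 8 series, and the Igf1r lines part at 3 h.

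Insr encodes the insulin receptor. Insr in EIF2A stood at 43.34, 35.29, 35.32 and 30.74 CPM at 0 h (replicates 1 to 4, in that order here and below), at 35.76, 29.21, 24.42 and 20.54 CPM at 1 h, and at 31.86, 28.94, 28.97 and 24.41 CPM at 3 h. Insr in GFP stood at 49.42, 43.50, 41.59 and 42.98 CPM at 0 h, at 40.46, 34.15, 35.83 and 32.08 CPM at 1 h, and at 40.36, 35.52, 37.89 and 32.18 CPM at 3 h. Most of the drop was there at 1 h, the groups at 0 h and 3 h overlapped in EIF2A, and they did not in GFP. The unpaired fit gave −0.34 ± 0.14 at 3 h in EIF2A (adjusted p = 0.0595) and −0.28 ± 0.14 in GFP (adjusted p = 0.126), neither of them a call. In the paired fit Insr fell at 3 h by 0.335 ± 0.07 in EIF2A (adjusted p = 8.01e-05) and by 0.28 ± 0.06 in GFP (adjusted p = 0.000196). It fell at 1 h too, by 0.40 ± 0.07 in EIF2A (adjusted p = 2.74e-05) and by 0.32 ± 0.06 in GFP (adjusted p = 0.000137).

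Igf1r encodes the IGF1 receptor, and its direction at 3 h differed between libraries. Igf1r in EIF2A stood at 140.4, 110.3, 106.1 and 88.72 CPM at 0 h, at 119.5, 71.69, 80.02 and 67.67 CPM at 1 h, and at 162.9, 63.22, 65.25 and 59.25 CPM at 3 h. Igf1r in GFP stood at 95.79, 145.1, 140.2 and 139.9 CPM at 0 h, at 75.20, 125.2, 119.9 and 116.2 CPM at 1 h, and at 66.99, 215.8, 214.0 and 190.1 CPM at 3 h. Every series was lower at 1 h than at 0 h. At 3 h replicates 2 to 4 of EIF2A were below all their 0 h values and replicates 2 to 4 of GFP above all theirs, while the library labelled replicate 1 went the other way in each construct. With replicate 1 the change at 3 h was −0.35 ± 0.33 in EIF2A (adjusted p = 0.46) and 0.40 ± 0.33 in GFP (adjusted p = 0.39). Without it Igf1r fell by 0.70 ± 0.08 in EIF2A (adjusted p = 1.59e-07) and rose by 0.54 ± 0.07 in GFP (adjusted p = 2.13e-06). For 3 h against 1 h the paired fit gave −0.02 ± 0.19 in EIF2A (adjusted p = 0.934), and in GFP it called a rise of 0.58 ± 0.18 (adjusted p = 0.0188).

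Igf2r encodes the receptor that takes up IGF2 for breakdown and sorts lysosomal enzymes, with no kinase of its own. Igf2r in EIF2A stood at 161.7, 131.8, 142.0 and 134.2 CPM at 0 h, at 156.4, 100.5, 106.9 and 104.7 CPM at 1 h, and at 118.0, 93.58, 95.68 and 94.27 CPM at 3 h. Igf2r in GFP stood at 188.0, 129.1, 125.6 and 124.5 CPM at 0 h, at 193.8, 124.8, 116.4 and 124.9 CPM at 1 h, and at 157.6, 100.3, 94.36 and 96.21 CPM at 3 h. All 8 series were lower at 3 h than at 0 h, and replicate 1 was the highest library of each group. Igf2r fell at 3 h in EIF2A by 0.505 ± 0.19 (adjusted p = 0.0434), a call lost with library totals as the scaling (adjusted p = 0.142) and without replicate 2, 3 or 4, where the adjusted p reached 0.186. It was also lost without the filter (adjusted p = 0.0614) and without any of 8 single libraries, with an adjusted p of up to 0.102. In GFP the change was −0.34 ± 0.19 (adjusted p = 0.188), and in the paired fit Igf2r fell by 0.35 ± 0.05 (adjusted p = 7.72e-07). At 1 h the paired fit had it lower by 0.29 ± 0.05 in EIF2A (adjusted p = 4.41e-05) and gave −0.03 ± 0.05 in GFP (adjusted p = 0.698).

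Irs1, the adaptor best known from muscle and fat, made no call in the unpaired fit. Irs1 in EIF2A stood at 22.38, 14.13, 14.70 and 12.38 CPM at 0 h, at 21.81, 12.44, 11.56 and 9.534 CPM at 1 h, and at 19.70, 20.28, 17.44 and 16.67 CPM at 3 h. Irs1 in GFP stood at 26.81, 18.94, 22.42 and 21.60 CPM at 0 h, at 21.80, 20.44, 20.05 and 19.58 CPM at 1 h, and at 19.66, 23.26, 21.93 and 19.14 CPM at 3 h. Replicates 2 to 4 of EIF2A were lowest at 1 h and highest at 3 h, and the GFP groups overlapped at all times. For 3 h against 1 h in EIF2A the paired fit called a rise of 0.44 ± 0.12 (adjusted p = 0.00386), where the unpaired fit gave 0.415 ± 0.20 (adjusted p = 0.176). In GFP that change was 0.04 ± 0.11 in the paired fit (adjusted p = 0.785).

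Irs2, the adaptor known for its part in beta cell mass, was higher with thapsigargin in all 8 series, from unlike starting levels. Irs2 in EIF2A stood at 17.51, 3.515, 3.341 and 4.539 CPM at 0 h, at 29.62, 6.079, 7.302 and 7.667 CPM at 1 h, and at 27.98, 5.219, 5.911 and 7.796 CPM at 3 h. Irs2 in GFP stood at 8.084, 21.12, 22.22 and 24.12 CPM at 0 h, at 14.87, 38.27, 36.78 and 39.61 CPM at 1 h, and at 17.65, 32.51, 35.37 and 37.77 CPM at 3 h. The 8 log2 ratios of 1 h over 0 h lay between 0.715 and 1.13, and those of 3 h over 0 h between 0.57 and 1.13. Groups overlapped in each construct because replicate 1 lay far from the other libraries, and the unpaired fit made no call, with 0.79 ± 0.625 at 1 h in EIF2A (adjusted p = 0.511) and 0.775 ± 0.60 in GFP (adjusted p = 0.552). In the paired fit Irs2 rose at 1 h by 0.815 ± 0.105 in EIF2A (adjusted p = 5.18e-07) and by 0.78 ± 0.07 in GFP (adjusted p = 3.08e-09). At 3 h it rose in the paired fit by 0.69 ± 0.105 in EIF2A (adjusted p = 1.41e-06) and by 0.73 ± 0.07 in GFP (adjusted p = 8.6e-10). For 3 h against 1 h the paired fit gave −0.12 ± 0.09 in EIF2A (adjusted p = 0.287) and −0.05 ± 0.07 in GFP (adjusted p = 0.607).

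Pik3r1 encodes p85α, the regulatory subunit that links PI3K to IRS proteins. Pik3r1 in EIF2A stood at 252.6, 132.3, 122.0 and 117.4 CPM at 0 h, at 268.7, 149.0, 149.6 and 127.3 CPM at 1 h, and at 309.7, 119.3, 113.8 and 96.49 CPM at 3 h. Pik3r1 in GFP stood at 192.6, 217.1, 218.3 and 219.5 CPM at 0 h, at 196.6, 286.2, 270.2 and 246.1 CPM at 1 h, and at 226.0, 269.9, 259.5 and 232.7 CPM at 3 h. All 8 series were higher at 1 h than at 0 h, by log2 ratios of 0.03 to 0.40. The unpaired fit made no call. In EIF2A the paired fit gave 0.17 ± 0.08 at 1 h (adjusted p = 0.0923) and, for 3 h against 1 h, a fall of 0.21 ± 0.08 (adjusted p = 0.0286). The series did not agree on that fall: the log2 ratio was 0.205 in replicate 1 and −0.322, −0.395 and −0.4 in replicates 2 to 4. In GFP the paired fit called a rise of Pik3r1 of 0.23 ± 0.08 at 1 h (adjusted p = 0.02) and of 0.22 ± 0.08 at 3 h against 0 h (adjusted p = 0.0157).

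Akt1, the broadly expressed AKT kinase, fell at each step. Akt1 in EIF2A stood at 199.1, 229.1, 249.9 and 283.3 CPM at 0 h, at 163.9, 168.6, 164.9 and 208.5 CPM at 1 h, and at 122.5, 112.3, 114.2 and 132.2 CPM at 3 h. Akt1 in GFP stood at 188.8, 213.3, 220.5 and 224.0 CPM at 0 h, at 155.8, 160.4, 165.1 and 179.3 CPM at 1 h, and at 115.6, 113.9, 115.1 and 140.5 CPM at 3 h. The 3 h and 0 h groups did not overlap in either construct, and replicate 1 fell too. In EIF2A the log2 ratio of 3 h over 0 h was −0.701 in replicate 1 and −1.13 to −1.03 in replicates 2 to 4. At 3 h Akt1 fell by 0.998 ± 0.105 in EIF2A (adjusted p = 3.21e-07), a level 0.501 times that at 0 h, and by 0.80 ± 0.105 in GFP (adjusted p = 5.36e-06), a level 0.573 times that at 0 h. Over 35 alternatives the adjusted p stayed at or under 0.000373 in EIF2A and 0.00215 in GFP. At 1 h it fell by 0.445 ± 0.10 in EIF2A (adjusted p = 0.00837) and by 0.36 ± 0.10 in GFP (adjusted p = 0.0369). The 1 h call in EIF2A was lost in 2 of 35 alternatives, without replicate 2 (adjusted p = 0.159) or 3 (adjusted p = 0.233), and the 1 h call in GFP in 9 of 35, with an adjusted p of up to 0.386 without replicate 3.

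Akt2, the AKT kinase best known for glucose uptake in muscle and fat, moved less than Akt1. Akt2 in EIF2A stood at 156.8, 204.4, 221.8 and 235.1 CPM at 0 h, at 155.0, 193.5, 192.8 and 212.5 CPM at 1 h, and at 150.1, 146.0, 147.6 and 177.8 CPM at 3 h. Akt2 in GFP stood at 183.1, 155.8, 161.1 and 162.6 CPM at 0 h, at 182.3, 146.9, 147.9 and 157.5 CPM at 1 h, and at 175.4, 119.7, 128.3 and 137.4 CPM at 3 h. All 8 series were lower at 3 h than at 0 h, and replicate 1 changed least in both constructs. Akt2 fell at 3 h in EIF2A by 0.40 ± 0.13 (adjusted p = 0.0206), a call lost with library totals as the scaling (adjusted p = 0.0979) and in other settings, up to an adjusted p of 0.203 without replicate 3. In GFP the change was −0.24 ± 0.13 (adjusted p = 0.167), and in the paired fit Akt2 fell by 0.25 ± 0.06 (adjusted p = 0.000543). The ratio of the Akt1 level to the Akt2 level was also taken per kilobase of exon. In replicates 2 to 4 of EIF2A it was 1.29 to 1.35 at 3 h and 1.95 to 2.1 at 0 h. In those of GFP it was 1.56 to 1.78 at 3 h and 2.38 to 2.4 at 0 h. The order of the constructs was reversed in replicate 1, with 1.42 at 3 h and 2.21 at 0 h as labelled EIF2A. As labelled GFP, replicate 1 had 1.15 at 3 h and 1.79 at 0 h.

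Foxo1 encodes the FOXO factor best studied in beta cells, and its mRNA made no call in the unpaired fit. Foxo1 in EIF2A stood at 41.30, 83.42, 75.32 and 102.3 CPM at 0 h, at 46.25, 76.37, 77.59 and 96.94 CPM at 1 h, and at 43.74, 92.87, 85.79 and 97.39 CPM at 3 h. Foxo1 in GFP stood at 58.41, 44.43, 48.48 and 50.07 CPM at 0 h, at 61.19, 54.92, 54.22 and 56.73 CPM at 1 h, and at 67.05, 54.07, 53.51 and 57.65 CPM at 3 h. The EIF2A groups overlapped at all times, and the 4 GFP series were higher at 1 h and 3 h than at 0 h. The paired fit gave 0.09 ± 0.06 at 3 h in EIF2A (adjusted p = 0.17). In GFP that fit had Foxo1 rise by 0.18 ± 0.06 at 1 h (adjusted p = 0.0119) and by 0.21 ± 0.06 at 3 h (adjusted p = 0.00205).

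Foxo3, a FOXO factor related to Foxo1, had the lowest mean per kilobase of the 10 mRNAs over all libraries and the highest fold change of 3 h over 0 h in both constructs. Foxo3 in EIF2A stood at 5.722, 4.376, 5.441 and 4.952 CPM at 0 h, at 7.439, 6.498, 6.085 and 7.134 CPM at 1 h, and at 11.31, 13.28, 11.06 and 13.37 CPM at 3 h. Foxo3 in GFP stood at 6.504, 10.12, 9.735 and 9.510 CPM at 0 h, at 7.171, 11.22, 10.78 and 10.99 CPM at 1 h, and at 13.56, 15.72, 19.36 and 20.82 CPM at 3 h. Each 3 h library was above every 0 h library of its construct. Foxo3 rose at 3 h by 1.26 ± 0.17 in EIF2A (adjusted p = 7.04e-06), a level 2.39 times that at 0 h, and by 0.95 ± 0.17 in GFP (adjusted p = 0.000139), a level 1.93 times that at 0 h. Over 35 alternatives the adjusted p stayed at or under 0.00193 in EIF2A and 0.00874 in GFP. Most of the rise came after 1 h: for 3 h against 1 h it was 0.85 ± 0.17 in EIF2A (adjusted p = 0.00173) and 0.79 ± 0.165 in GFP (adjusted p = 0.00421). At 1 h the unpaired fit gave 0.41 ± 0.17 in EIF2A (adjusted p = 0.143), which the paired fit called with 0.41 ± 0.13 (adjusted p = 0.00952), and 0.16 ± 0.17 in GFP (adjusted p = 0.698). Per kilobase, Foxo1 stayed above Foxo3 in every library. At 3 h it was 6.11 to 6.78 times Foxo3 in replicates 2 to 4 of EIF2A and 2.42 to 3 times in those of GFP. In replicate 1 at 3 h it was 3.38 times Foxo3 as labelled EIF2A and 4.32 times as labelled GFP.

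**Figure D3:**
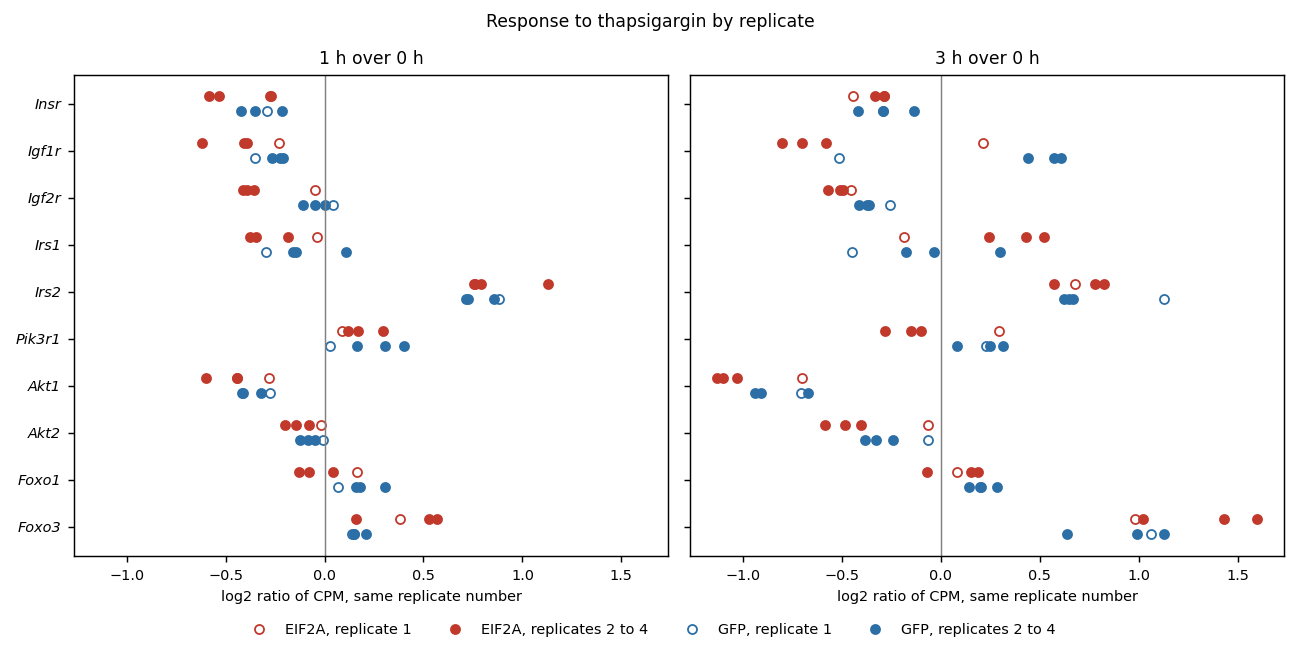
Log2 ratio of CPM at 1 h over 0 h (left) and at 3 h over 0 h (right) between libraries of the same construct and replicate number, with EIF2A in red above GFP in blue and open points for replicate 1. Akt1 lies between −1.13 and −0.673 and Foxo3 between 0.636 and 1.6 at 3 h, while the Igf1r points fall on both sides of 0.

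The second comparison sets EIF2A against GFP at each time. With all 4 replicates no member was called by edgeR at 0, 1 or 3 h, where 0.0218%, 1.02% and 0% of genes were called. At an unadjusted p under 0.05 there were 6, 4 and 4 members, beside 21.8%, 28.3% and 21.1% of all genes. DESeq2 called 1, 1 and 0, beside 3.83%, 15.3% and 1.53% of genes, and the 1 member was Foxo3 both times. Without replicate 1, edgeR called 8, 9 and 8 of the 10, where 64.8%, 70.0% and 67.6% of all genes were called. In replicates 2 to 4 Irs1, Irs2, Insr, Igf1r, Pik3r1 and Foxo3 were lower in EIF2A at all 3 times, Akt2 and Foxo1 were higher at all 3, and Igf2r was lower at 1 h.

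Irs2 had the widest gap between constructs. At 0 h it averaged 3.798 ± 0.647 CPM in EIF2A and 22.49 ± 1.517 CPM in GFP (SD, n = 3 each, replicates 2 to 4). The change without replicate 1 was −2.58 ± 0.14 at 0 h (adjusted p = 7.98e-12), −2.44 ± 0.11 at 1 h (adjusted p = 7e-13) and −2.48 ± 0.11 at 3 h (adjusted p = 4.55e-13). In the pair labelled replicate 1 the log2 ratio was 1.11, 0.99 and 0.665. With all 4 it was −1.36 ± 0.63 at 0 h (adjusted p = 0.215). Per kilobase, Irs1 was 1.89 to 3.04 times Irs2 in replicates 2 to 4 of EIF2A at 0 h, and 0.619 to 0.698 times Irs2 in those of GFP. In replicate 1 at 0 h Irs1 was 0.884 times Irs2 as labelled EIF2A and 2.29 times as labelled GFP.

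Pik3r1 and Igf1r were also lower in EIF2A in replicates 2 to 4, and at 3 h theirs were the widest gaps after Irs2. Pik3r1 differed by −0.815 ± 0.08 at 0 h (adjusted p = 6.19e-08) and by −1.21 ± 0.08 at 3 h (adjusted p = 1.92e-10), against −0.63 ± 0.31 at 3 h with all 4 (adjusted p = 0.24). Igf1r differed by −0.48 ± 0.07 at 0 h (adjusted p = 1.72e-05) and by −1.72 ± 0.08 at 3 h (adjusted p = 3.2e-13), against −0.97 ± 0.33 at 3 h with all 4 (adjusted p = 0.187). The pair labelled replicate 1 had log2 ratios of 0.455 for Pik3r1 and 1.28 for Igf1r at 3 h.

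Insr and Foxo3 were lower in EIF2A in replicates 2 to 4 and, as labelled, nearly always in replicate 1 as well. Insr differed without replicate 1 by −0.33 ± 0.10 at 0 h (adjusted p = 0.00621), −0.46 ± 0.10 at 1 h (adjusted p = 0.000478) and −0.36 ± 0.10 at 3 h (adjusted p = 0.00341). In the pair labelled replicate 1 its log2 ratios were −0.189, −0.178 and −0.341, so all 12 pairs had the lower value in the library labelled EIF2A. The 12 pairs match by label only, since the log2 ratio of Eif2a in replicate 1 was −1.75, −1.9 and −1.78. By Eif2a level, Insr was lower in the library with less Eif2a in replicate 1 and in that with more Eif2a in replicates 2 to 4. Including replicate 1, Insr was at −0.29 ± 0.14 at 0 h (adjusted p = 0.224), −0.37 ± 0.14 at 1 h (adjusted p = 0.0999) and −0.35 ± 0.14 at 3 h (adjusted p = 0.196). Foxo3 differed by −1.0 ± 0.135 at 0 h without replicate 1 (adjusted p = 2.6e-06), with −0.185 in the pair labelled replicate 1, and by −0.57 ± 0.10 at 3 h (adjusted p = 5.09e-05). With all 4 replicates Foxo3 at 0 h was at −0.81 ± 0.17 (adjusted p = 0.0636).

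Irs1 differed without replicate 1 by −0.605 ± 0.11 at 0 h (adjusted p = 7.46e-05), −0.84 ± 0.11 at 1 h (adjusted p = 1.2e-06) and −0.24 ± 0.10 at 3 h (adjusted p = 0.0361). Including replicate 1, it was at −0.49 ± 0.20 (adjusted p = 0.175), −0.56 ± 0.20 (adjusted p = 0.0904) and −0.18 ± 0.20 (adjusted p = 0.55). The pair labelled replicate 1 had log2 ratios of −0.26, 0.00035 and 0.0028, so at 1 h and 3 h its libraries hardly differed. Foxo1 was higher in EIF2A by 0.87 ± 0.10 at 0 h (adjusted p = 2.78e-07) and by 0.74 ± 0.09 at 3 h (adjusted p = 1.38e-06). Akt2 was higher by 0.46 ± 0.07 at 0 h (adjusted p = 1.84e-05) and by 0.29 ± 0.07 at 3 h (adjusted p = 0.00175). Both were lower in the library labelled EIF2A replicate 1 than in that labelled GFP replicate 1 at each time, and with all 4 replicates at 0 h Foxo1 was at 0.58 ± 0.24 (adjusted p = 0.182) and Akt2 at 0.30 ± 0.13 (adjusted p = 0.191). Igf2r at 1 h differed by −0.23 ± 0.05 without replicate 1 (adjusted p = 0.000272) and by −0.26 ± 0.19 with it (adjusted p = 0.361). Akt1 made no call without replicate 1, with 0.21 ± 0.10 at 0 h (adjusted p = 0.0601) and −0.04 ± 0.10 at 3 h (adjusted p = 0.706, 95% interval −0.235 to 0.148).

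**Figure D4:**
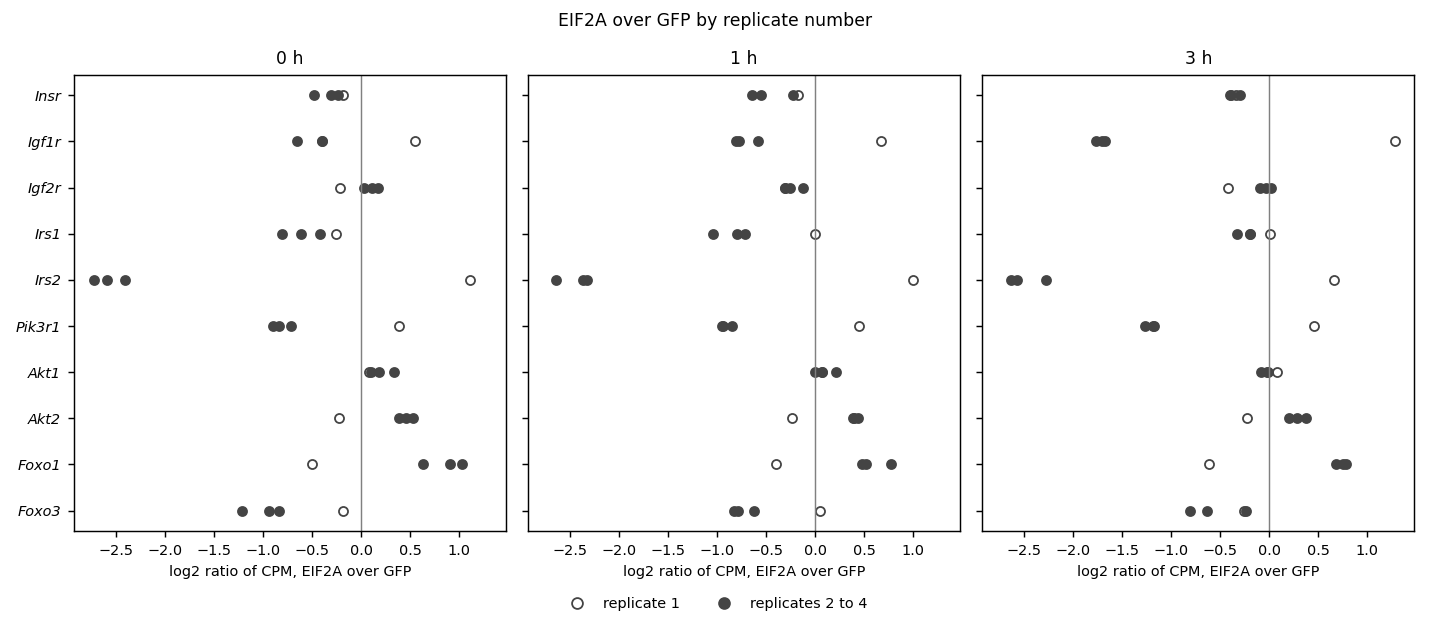
Log2 ratio of CPM, EIF2A over GFP, between libraries of the same replicate number at 0, 1 and 3 h, with open points for replicate 1. Irs2 lies between −2.73 and −2.28 in replicates 2 to 4 and between 0.665 and 1.11 in replicate 1. Insr is below 0 in all 12 pairs as labelled, though Eif2a goes against the labels in replicate 1.

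The third comparison asks whether the response to thapsigargin differed between constructs, as the log2 change in EIF2A minus the log2 change in GFP. With all 4 replicates edgeR called no member at 1 h or 3 h, where it called 0% of genes at both times. No member had an unadjusted p under 0.05, beside 0.523% and 1.06% of all genes, and DESeq2 called none, with 0% of genes. Without replicate 1 edgeR called Igf2r at 1 h, where 0.816% of genes were called, and Igf1r at 3 h, where 4.12% were called. Igf1r differed by −1.25 ± 0.11 (adjusted p = 8.71e-07), the 5th smallest p of 13731 genes, with differences of −1.38, −1.31 and −1.02 in replicates 2, 3 and 4 and 0.731 in the pair labelled replicate 1. With all 4 it was −0.745 ± 0.47 (adjusted p = 1.0). Igf2r at 1 h differed by −0.335 ± 0.07 (adjusted p = 0.0257), with −0.342, −0.301 and −0.362 in replicates 2 to 4 and −0.0913 in the pair labelled replicate 1.

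The other members showed no called difference in response without replicate 1 in the unpaired fit. For Irs2 at 3 h it was 0.10 ± 0.19, with a 95% interval of −0.285 to 0.476. For Akt1 at 3 h it was −0.255 ± 0.14 (95% interval −0.523 to 0.0132), and for Foxo3 0.44 ± 0.17 (95% interval 0.105 to 0.771, adjusted p = 0.172). For Pik3r1 at 3 h it was −0.39 ± 0.115 (adjusted p = 0.0597). These intervals are for single genes without adjustment. With replicate number as a block within construct, replicates 2 to 4 gave more calls, 3 members at 1 h, where 7.62% of genes were called, and 5 at 3 h, where 14.2% were called. At 1 h these were Igf2r, Igf1r with −0.24 ± 0.07 (adjusted p = 0.0197) and Foxo1 with −0.27 ± 0.08 (adjusted p = 0.0236). At 3 h they were Igf1r, Pik3r1 with −0.39 ± 0.06 (adjusted p = 6.02e-05), Akt1 with −0.25 ± 0.06 (adjusted p = 0.0067), Akt2 with −0.17 ± 0.06 (adjusted p = 0.0418) and Irs1 with 0.37 ± 0.12 (adjusted p = 0.0374). With all 4 replicates that block called no member at 1 h or 3 h, and 0.00727% and 0.0145% of genes.

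Around these members, 99 other genes of the pathway were listed, and 90 were tested. At 3 h against 0 h, 17 rose and 20 fell in EIF2A, which is 41.1% against 36.2% of all genes, and 17 rose and 16 fell in GFP, which is 36.7% against 33.0%. Their median change was −0.0564 in EIF2A and −0.0396 in GFP, beside −0.0101 and −0.00242 over all genes. Not tested for low counts were Igf1, Igfbp1, Irs4, Gab1, Pdk4, Trim63, Ccnd1, G6pc and Pck1.

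Among 22 inhibitors of the pathway, 6 rose and 4 fell in EIF2A and 5 rose and 3 fell in GFP. These calls at 3 h against 0 h were 45.5% of the list in EIF2A and 36.4% in GFP, beside 36.2% and 33.0% of all genes. Trib3, a pseudokinase known to bind AKT and a target of the ER stress response, rose by 2.78 ± 0.34 in EIF2A (adjusted p = 1.8e-06) and by 2.90 ± 0.34 in GFP (adjusted p = 1.45e-06). At 3 h its replicates 2 to 4 reached 318 to 381.9 CPM in EIF2A and 222.6 to 249.8 CPM in GFP. These had started at 49.64 to 57.85 CPM in EIF2A and 23 to 23.75 CPM in GFP at 0 h. In replicate 1 at 3 h Trib3 stood the other way round, at 242.1 CPM as labelled EIF2A and 301.7 CPM as labelled GFP. Ptpn2, a phosphatase that acts on the insulin receptor, rose by 0.79 ± 0.13 in EIF2A (adjusted p = 7.4e-05) and by 0.74 ± 0.13 in GFP (adjusted p = 0.000175).

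Among 23 genes of the AKT and mTOR branch, 5 rose and 5 fell in EIF2A. In GFP 4 rose and 4 fell. At 3 h against 0 h that was 43.5% of the list in EIF2A and 34.8% in GFP, beside 36.2% and 33.0% of all genes. Eif4ebp1, which restrains cap-dependent translation, rose by 1.16 ± 0.21 in EIF2A (adjusted p = 0.000186) and by 1.35 ± 0.21 in GFP (adjusted p = 4.86e-05). Gsk3a, a kinase that AKT inhibits, fell by 0.34 ± 0.07 in EIF2A (adjusted p = 0.000973) and by 0.37 ± 0.07 in GFP (adjusted p = 0.000451).

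Among 20 genes listed as other FOXO factors or FOXO targets, 4 rose and 3 fell in EIF2A. In GFP 5 rose and 3 fell. At 3 h against 0 h that was 35.0% of the list in EIF2A and 40.0% in GFP, beside 36.2% and 33.0% of all genes. Klf11 and Cited2 rose in EIF2A by 1.21 ± 0.21 (adjusted p = 9.66e-05) and 1.15 ± 0.21 (adjusted p = 0.000194). In GFP Klf11 rose by 1.16 ± 0.205 (adjusted p = 0.000165) and Sod2, the mitochondrial superoxide dismutase, fell by 0.50 ± 0.09 (adjusted p = 0.000121). Sesn1 fell by 1.05 ± 0.16 in EIF2A (adjusted p = 2.88e-05), so listed FOXO targets went both ways.

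Of 8 other genes of PI3K and the kinase PDK1, none rose and 3 fell in EIF2A, and 1 rose and 3 fell in GFP. These calls at 3 h against 0 h were 37.5% of the list in EIF2A and 50.0% in GFP, beside 36.2% and 33.0% of all genes. The catalytic subunit Pik3ca fell by 0.60 ± 0.10 in EIF2A (adjusted p = 8.23e-05) and by 0.52 ± 0.10 in GFP (adjusted p = 0.000421). Of 9 other receptors and adaptors, 2 rose and 3 fell in EIF2A (55.6% of the list) and 2 rose and 1 fell in GFP (33.3%). Gab2, a docking protein, rose by 0.79 ± 0.18 in EIF2A (adjusted p = 0.0015) and by 0.73 ± 0.18 in GFP (adjusted p = 0.00267).

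Of 8 ligands and binding proteins none rose and 2 fell in each construct at 3 h against 0 h. That is 25.0% of the list in each, beside 36.2% of all genes in EIF2A and 33.0% in GFP. Igfals, the partner of IGF and its binding proteins in serum, fell by 0.79 ± 0.16 in EIF2A (adjusted p = 0.000637) and by 1.19 ± 0.16 in GFP (adjusted p = 9.44e-06). Igfbp5 fell by 1.32 ± 0.26 in EIF2A (adjusted p = 0.000446) and by 1.43 ± 0.26 in GFP (adjusted p = 0.000221). Igf2, at a mean of 8480 CPM, was called in the paired fit, by −0.74 ± 0.05 in EIF2A (adjusted p = 2.31e-12) and −0.69 ± 0.05 in GFP (adjusted p = 9.19e-12). The unpaired fit did not call it (adjusted p = 0.122 in EIF2A and 0.187 in GFP).

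Between constructs at 0 h without replicate 1, 20 of the 89 pathway genes tested were higher in EIF2A and 39 lower, 66.3% against 64.8% of all genes. Igf2 was higher by 1.23 ± 0.08 (adjusted p = 5.84e-11), with 13770 to 16180 CPM in EIF2A and 6309 to 6586 CPM in GFP. Igfbp7, an IGF binding protein, differed by −3.04 ± 0.145 (adjusted p = 1.17e-12), with 6.912 to 8.393 CPM in EIF2A and 61.09 to 62.61 CPM in GFP. Both stood the other way round in replicate 1, with 6073 CPM of Igf2 and 66.11 CPM of Igfbp7 in the library labelled EIF2A, against 11140 and 5.835 CPM in that labelled GFP. Trib2, another pseudokinase of the Tribbles family, differed by −2.30 ± 0.10 (adjusted p = 2.94e-13), and Tbc1d4, an AKT substrate in glucose transport, by −1.40 ± 0.12 (adjusted p = 6.74e-09). These also stood the other way round in replicate 1, with 55.4 CPM of Trib2 and 20.05 CPM of Tbc1d4 in the library labelled EIF2A, against 17.81 and 11.97 CPM in that labelled GFP. None of these 4 genes was called at 0 h with all 4 replicates (adjusted p = 0.237 for Igf2, 0.494 for Igfbp7, 0.314 for Trib2 and 0.222 for Tbc1d4).

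The genes most alike in pattern were ranked by Pearson's r of log2 CPM over 24 libraries, centred within construct and replicate number, among the 10907 genes that averaged 5 CPM or more. The libraries share time points and scaling, so these values are a description. Tpx2 (r = 0.984) and Sdha (r = 0.974) were most like Irs2, and Eaf1 (r = 0.954) and Mfsd6 (r = 0.951) most like Insr. Ftl1 and Syt7 were most like Akt1 (r = 0.996 each), and Stmn4 (r = 0.983) and Brca2 (r = 0.976) most like Foxo3. Fam124a (r = 0.901) and Pcsk2os1 (r = 0.874) were most like Igf1r. For the other 5 members the first gene had r of 0.875 (Foxo1 with Cse1l) to 0.978 (Akt2 with Kdm2b). Within the set, r ran from −0.941 (Akt1 and Foxo3) to 0.929 (Igf2r and Akt1). Akt1 and Akt2 had r = 0.919, and Irs2 and Insr r = −0.913.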

How the data were processed

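The authors deposited a table of raw counts, whole numbers per gene and not normalized, for 24 libraries. Per the submitters' processing notes, bcl2fastq, STAR and the build mm10 were used. The counting program, annotation and strand setting are not given in the sources used. The 2 lines that name no gene held 10.7 to 17.9% (no feature) and 0.518 to 0.592% (ambiguous) of counts per library and were left out. The no-feature share differed by construct: at 0 h it was 17.9, 17.2 and 17.2% in EIF2A replicates 2 to 4. In those of GFP it was 13, 12.5 and 12.4%, and in replicate 1 it was 12% in EIF2A and 11.8% in GFP. Its part in the differences between constructs was not tested. Groups and replicate numbers follow the sample titles.

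The test was that of edgeR 4.0.16 under R 4.3.3 (scaling by TMM, minimum count 10, minimum total 15, robust quasi-likelihood fit of 6 group means to all 24 libraries at once, with 18 residual degrees of freedom). The method was tested on simulated data. Alternatives were DESeq2 1.42.0, other scalings, no filter, a trend on exonic length removed, a replicate block, and replicates or libraries left out. Deviations from group means correlated within construct between libraries of the same number (r = 0.51 to 0.933 over 24 pairs, 22 of them best with their own number), which is why the paired fit is given for contrasts over time. Among replicates 2 to 4 alone, r was −0.0264 to 0.312 over 18 pairs, 15 of them best with their own number, and not every pair was over 0.1. Pairs of libraries of a group differed by a chi-square over degrees of freedom of 1.32 to 20 within replicates 2 to 4 and of 67.4 to 151 with replicate 1. Exonic lengths and coordinates are from GENCODE M21, promoter sequences from RefSeq on GRCm38.p6, where 9 of 10 members matched.

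Members and pathway lists were chosen with earlier results of these data known. The text names all 10 members. It also names pathway genes from the 3 with the smallest p of each list, at 3 h against 0 h and between constructs without replicate 1, and for each member the 2 genes most alike. Reads carry no molecular identifiers, so the true error exceeds that of counting.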

Additional observations from a re-analysis of the deposited data

Results flagged for a closer look

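In 20 of 60 groups of 4 values the highest or lowest library stood apart from the other 3 by more than Dixon's critical value of 0.829 of the range, where chance gives about 1 in 20, and 17 of the 20 were replicate 1. Irs2 stood apart at 17.5, 29.6 and 28 CPM in the libraries labelled EIF2A replicate 1 at 0, 1 and 3 h, and at 14.9 CPM in that labelled GFP replicate 1 at 1 h. Igf1r stood apart at 163 CPM in EIF2A replicate 1 at 3 h and at 95.8 CPM in GFP replicate 1 at 0 h. Igf2r stood apart in replicate 1 at 156 and 118 CPM in EIF2A at 1 and 3 h, and at 188, 194 and 158 CPM in GFP at 0, 1 and 3 h, above the other libraries in both constructs. Pik3r1 stood apart in replicate 1 at 253, 269 and 310 CPM in EIF2A at 0, 1 and 3 h, and at 193 CPM in GFP at 0 h. Foxo3 stood apart in GFP replicate 1 at 6.5 CPM at 0 h and 7.17 CPM at 1 h. The 3 others were all in replicate 4: Akt1 at 208 CPM in EIF2A at 1 h and at 141 CPM in GFP at 3 h, and Akt2 at 178 CPM in EIF2A at 3 h.

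The log2 change in EIF2A minus that in GFP was called in replicates 2 to 4 by the test of the difference itself for Igf1r at 3 h (−1.25) and for Igf2r at 1 h (−0.335). Neither was called with replicate 1 included.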

How the results depend on the processing

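Over 35 alternatives, the fall of Akt1 and the rise of Foxo3 at 3 h against 0 h were called each time in both constructs. Counts of members called that moved by more than 1.5 times are as follows. DESeq2 called 2 at 1 h against 0 h in EIF2A (1 in the edgeR fit), beside 16.4% of genes, and 1 between constructs at 0 h and 1 at 1 h (0 each in the edgeR fit). With library totals, which shift the median of all genes by up to 0.173, 2 were called at 3 h against 0 h in EIF2A instead of 4. Without the filter 0 were called at 1 h in GFP instead of 1. The shares of all genes called with library totals and without the filter are not given here. A change in these members thus cannot be told from a change in calling over all genes. The replicate block called 5 at 1 h against 0 h and 6 at 3 h against 1 h in EIF2A, and 5 at 1 h, 8 at 3 h against 0 h and 5 at 3 h against 1 h in GFP.

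Across constructs, numbers were not taken to pair libraries, since not every pair had r over 0.1. With replicate 1, r was −0.663 to −0.159 over 12 pairs, none best with its own number. Among replicates 2 to 4, r was −0.0176 to 0.313 over 9 pairs, 7 of them best with their own number, which is a hint of pairing from the data and not from the design. With all 4 replicates, the replicate block called 3, 4 and 1 members between constructs at 0, 1 and 3 h, against 0 without it. Of all 13761 genes tested it called 1333, 2890 and 1054. The replicate block on replicates 2 to 4 alone called 9, 9 and 8 in EIF2A (1 h against 0 h, 3 h against 0 h, 3 h against 1 h), beside 51.5%, 68.2% and 58.1% of all genes, and 6, 9 and 5 in GFP, beside 51.9%, 70.1% and 54.3%. Between constructs it called 10, 9 and 8 at 0, 1 and 3 h, beside 70.0%, 74.5% and 73.1%, and for the difference in response 3 and 5 at 1 and 3 h, beside 7.62% and 14.2%. It turned Pik3r1 at 3 h against 0 h in EIF2A to −0.177 and Igf1r at 3 h against 1 h in EIF2A to −0.224, both uncalled and above 0 in the fit of all libraries. The cause was not tested.

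Leaving out 1 replicate number or 1 library in turn (28 fits), the counts ran over 0 to 6, 2 to 8 and 0 to 7 in EIF2A and 0 to 5, 2 to 8 and 0 to 5 in GFP for the same 3 contrasts, and 0 to 8, 0 to 9 and 0 to 8 between constructs, with 0 to 1 for both differences in response. The highest counts came without replicate 1, where more of all genes were called too. At 3 h against 0 h in EIF2A the share of all genes was 62.6% without replicate 1 and 36.2% with it. Shares for the other fits with a replicate or library left out are not given here. Without replicate 1, Igf1r at 3 h against 1 h in EIF2A was −0.225. That value ranged from −0.44 without the library labelled EIF2A replicate 1 at 3 h to 0.262 without that at 1 h.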
